A study of Mus musculus with 6 samples.

Results

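Hepatocytes store triglyceride in lipid droplets, whose surface carries coat proteins and the enzymes that break the stored fat down. The perilipins (Plin2 to Plin5 here) coat the droplet and control access to it, the CIDE proteins (Cidea, Cideb and Cidec) promote droplet fusion and growth or the lipidation of secreted particles, and Pnpla2 (adipose triglyceride lipase) removes the first fatty acid from triglyceride. Abhd5 (CGI-58) activates Pnpla2 and G0s2 inhibits it. Several of these genes are known targets of PPAR-alpha, the fasting-responsive nuclear receptor of the liver. These 10 genes were chosen by name on the array, by a rule that uses no measured value, though with earlier results of these data known, out of 27962 distinct gene or transcript names, and had 12 of the 41174 probes other than control spots. Pnpla2 and Abhd5 had 2 probes each and the other 8 genes had 1. All 12 probes were well above background on the 3 arrays of at least 1 group and were tested.

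Livers came from male mice aged 10 weeks on chow, on a 95% C57BL/6 background, with free access to food, killed at 4 pm, which the design ties to the study of PPAR-alpha dependent processes. SIRT1 LKO mice carried a liver-specific deletion of SIRT1, an NAD-dependent deacetylase (hepatocyte-specific by the title of the series), and were compared with Lox control mice. The sources used here do not name the recombinase driver or the deleted exons. RNA of 2 mice was pooled per replicate, giving 3 pools for 6 LKO mice and 3 pools for 6 control mice, each on its own 1-colour Agilent array. Because the RNA is of whole liver, fewer cells of a type and less RNA per cell cannot be told apart.

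Levels are given as log2 of the processed intensity minus log2 of the 75th percentile of that array (1005 to 1289 intensity units), and differences are LKO minus control from limma, adjusted by the Benjamini-Hochberg method over 23592 tested probes. Each of the 3 slides carried arrays of 1 genotype (LKO pools 1 and 2 together, LKO pool 3 apart, all controls together), so no comparison within a slide was possible. Differences between genotypes and between slides thus cannot be told apart. For LKO pool 3 the deposited value table and the scanner file held different values: they were equal within 1% for 0.853% of probes, against 99.8% in each other sample. The scanner file is used below, and results with LKO pool 3 taken from the value table are given for each member and each gene of the droplet list that is named. Whether either of the 2 Sirt1 probes lies in the deleted exons is unknown, so they do not check the labels: the brighter one read -0.07, 0.09 and 0.16 in LKO pools 1 to 3 and 0.29, 0.37 and 0.24 in control pools 1 to 3 (difference -0.24, limma adjusted p = 0.243), and the dimmer one overlapped between the groups.

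None of the 12 member probes passed an adjusted p of 0.05 in limma, where 15 of 23592 probes (0.0636%) did, 0.00424% as higher and 0.0593% as lower in LKO livers. At an unadjusted limma p under 0.05 there were 3 member probes, those of Cidea (lower in LKO livers), Plin4 and 1 of the 2 Pnpla2 probes (both higher), against 21.2% of all tested probes. Cidea, in this count and the next, entered the test through the control group alone, where it was higher. Requiring signal well above background on all arrays left 2 member probes in the first count. The groups did not overlap in 4 of the 12 probes, 2 with LKO above (Plin4 and a Pnpla2 probe) and 2 with LKO below (Cidea and an Abhd5 probe), a share near the 28.9% of all tested probes (14.9% above and 13.9% below). The differences ran from -1.74 to 1.0 with a median of 0.00, with 6 probes higher and 6 lower, and the median of all tested probes was 0.02.

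**Figure D1:**
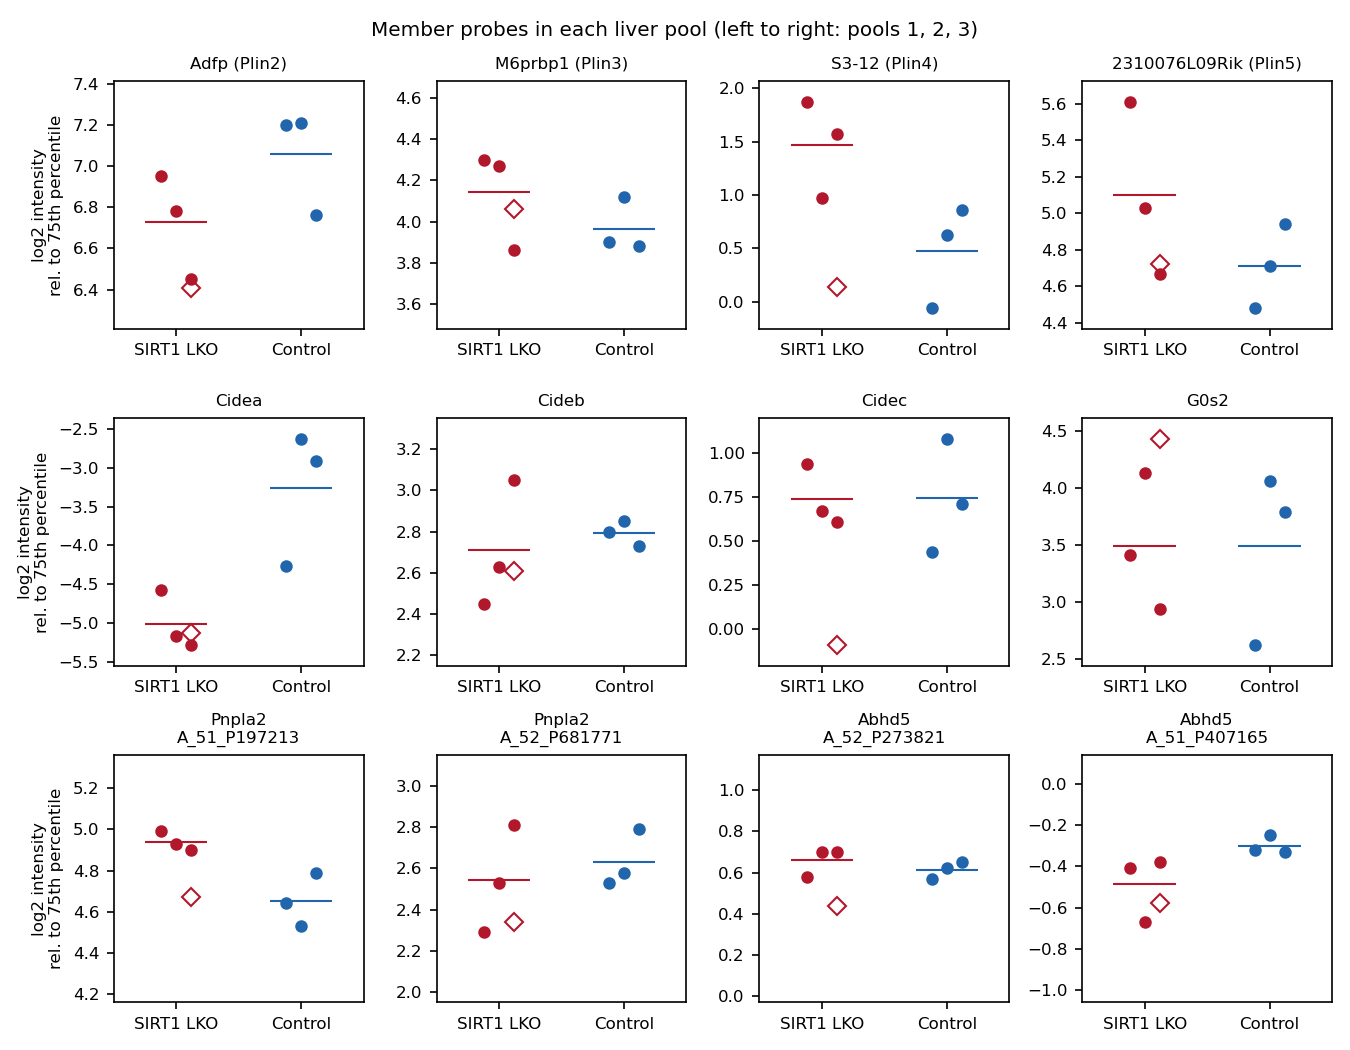
Each panel plots one probe, with the log2 intensity, scaled to the 75th percentile, on the vertical axis, SIRT1 LKO pools 1 to 3 in red and Control pools 1 to 3 in blue from left to right; lines are group means from the scanner files and the open diamond is LKO pool 3 as the value table gives it. Cidea in LKO pools lay below all controls whichever source is taken, whereas Plin4 of LKO pool 3 read 1.57 by its scanner file but 0.14 by the value table.

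Among the perilipins, the widest separation was that of Plin4 (named S3-12 on the array), a coat protein best known from adipocytes, where it covers small new droplets. Plin4 read 1.87, 0.97 and 1.57 in LKO pools 1 to 3, against -0.06, 0.63 and 0.86 in control pools 1 to 3. The LKO pools lay above every control pool, with pool 2 close to the highest control. The group levels were 1.47 ± 0.46 in LKO livers and 0.47 ± 0.48 in controls (SD, n = 3 each), a difference of 1.0 or 2.00-fold (SE 0.31, 95% interval 0.26 to 1.74, limma adjusted p = 0.151). With the value table LKO pool 3 lay inside the control range at 0.14, and the difference was 0.52 (interval -0.58 to 1.62, adjusted p = 0.496). Dropping the pool gave 0.95 (adjusted p = 0.163).

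Plin5 (2310076L09Rik on the array), which ties droplets to mitochondria in tissues that burn fat, is the next gene to Plin4 in the RefSeq table, and its probe starts 10.0 kilobases away. Its values were 5.61, 5.03 and 4.67 in LKO pools 1 to 3, against 4.48, 4.71 and 4.94 in control pools 1 to 3. LKO pools 1 and 2 were above all controls, while pool 3 was below the control mean. The difference was 0.40 (SE 0.25, 95% interval -0.21 to 1.0, adjusted p = 0.403). Leaving LKO pool 3 aside it was 0.61 (adjusted p = 0.140). In this gene the 2 sources of pool 3 nearly met, with 4.72 in the value table, which gave a difference of 0.41.

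The probe windows of both genes lie on the minus strand of chromosome 17 in mm7, the build of the array files, at chr17:54259939-54259998 for Plin4 and chr17:54269931-54269990 for Plin5. The upstream sequences of this neighbouring pair are shown because, in the mean of LKO pools 1 and 2, these members stood highest above the control mean (0.95 and 0.61). That choice leaves out LKO pool 3, where Plin5 lay below the control mean. Each is the 250 bases before the annotated start, 5′ to 3′ on the minus strand, from RefSeq on GRCm38.p6 (Plin4 chr17:56109783-56110032, Plin5 chr17:56117549-56117798). Capitals mark matches to CCAAT or its complement ATTGG in both, and to the nuclear receptor half-site AGGTCA in Plin5.
Plin4: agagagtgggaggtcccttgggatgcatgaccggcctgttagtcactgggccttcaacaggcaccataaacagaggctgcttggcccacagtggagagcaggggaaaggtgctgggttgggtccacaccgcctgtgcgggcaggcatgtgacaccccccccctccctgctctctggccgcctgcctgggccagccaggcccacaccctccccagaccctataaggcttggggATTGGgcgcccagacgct
Plin5: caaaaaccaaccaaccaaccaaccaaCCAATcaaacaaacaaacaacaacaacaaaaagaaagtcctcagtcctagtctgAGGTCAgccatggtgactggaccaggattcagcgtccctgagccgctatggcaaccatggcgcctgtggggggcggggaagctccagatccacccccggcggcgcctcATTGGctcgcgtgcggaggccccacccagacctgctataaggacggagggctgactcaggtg

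Windows of this length were searched on both strands for the motif CCAAT, for the half-site AGGTCA, for the DR1 repeat of that half-site, which PPAR and RXR bind, and for the sequences CACGTG (E-box), TATAAA (of the TATA box) and TGACGTCA (CRE). The 9 members other than Cidea had 11 windows, since Plin5 and Cidec each have a pair; Cidea was not in the set searched. CCAAT was present in 4 of the 11 windows, 1 each of Plin2, Plin3, Plin4 and Plin5, and in 33.8% of all 32851 windows. The half-site was present in 3, those of Plin2, Plin5 and Abhd5, and in 14.0% of all windows, while the DR1 repeat was in 0 of the 11 and in 0.0335% of all windows. TATAAA was found in 1 window, of Cideb (12.4% of all), and CACGTG and TGACGTCA in 0 (6.02% and 1.55% of all).

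The other pair of perilipins differed less. Plin2 (Adfp, adipophilin), the major droplet coat of hepatocytes, read 6.95, 6.78 and 6.45 in LKO pools 1 to 3, against 7.20, 7.21 and 6.76 in control pools 1 to 3. The lowest control lay between the LKO values, and the difference was -0.33 or 1.25-fold lower (SE 0.18, 95% interval -0.76 to 0.11, adjusted p = 0.348). The value table gave -0.34 and leaving out LKO pool 3 gave -0.19. Plin3 (M6prbp1, TIP47), a coat protein that moves between cytosol and droplets, read 4.30, 4.27 and 3.86 in LKO pools 1 to 3, against 3.90, 4.12 and 3.88 in control pools 1 to 3. Here LKO pool 3 alone lay at or below the controls, and the difference was 0.17 with it (95% interval -0.19 to 0.54, adjusted p = 0.540) and 0.32 without it (adjusted p = 0.126). The value table, with LKO pool 3 at 4.06, gave 0.24 (adjusted p = 0.228).

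Of the CIDE genes, Cidea had the largest difference of any member. It is abundant in brown fat, is known to be scarce in lean mouse liver and to be induced in fatty liver. Its values were -4.57, -5.17 and -5.28 in LKO pools 1 to 3, against -4.26, -2.63 and -2.91 in control pools 1 to 3. Every LKO pool was below every control pool, but control pool 1 lay close to the highest LKO pool while the other 2 controls stood much higher. The signals behind these values were faint, at 42, 28 and 33 intensity units in LKO pools 1 to 3 and 54, 163 and 141 in control pools 1 to 3, and 2 of 3 LKO arrays and 3 of 3 control arrays had the probe well above background. The probe thus entered the test through the control group alone, where it was higher, and the LKO level is close to the floor of the arrays. The levels were -5.01 ± 0.38 in LKO livers and -3.26 ± 0.87 in controls (SD, n = 3 each), a difference of -1.74 or 3.35-fold lower (SE 0.44, 95% interval -2.79 to -0.69, limma adjusted p = 0.117).

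With LKO pool 3 taken another way, the difference was -1.69 by the value table (adjusted p = 0.0841) and -1.61 when that pool was dropped (adjusted p = 0.116). It was -0.41 (adjusted p = 0.954) after normexp background correction, whose offset of 50 intensity units exceeds the signal of this probe on all 3 LKO arrays. With array weights, which gave control pool 2 a weight of 3.88 and LKO pool 3 one of 0.25, Cidea passed (-2.14, adjusted p = 0.0133), in a fit that called 5585 of 23592 probes. Its probe lies on the plus strand of chromosome 18 at 67759992 to 67760051 (mm7).

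Adipocyte markers had differences of both signs. Cfd (adipsin) read -3.40, -4.29 and -6.23 in LKO pools 1 to 3, against -2.22, 0.08 and -1.46 in control pools 1 to 3 (difference -3.44, adjusted p = 0.114; -2.69 with the value table). Like Cidea, Cfd entered the test through the control group alone, where it was higher, with 2 of 3 LKO arrays well above background. Control pool 2 was the highest and control pool 1 the lowest Cfd control, as for Cidea. Slc2a4 (the insulin-responsive glucose transporter), named after its values were seen, ran the other way, at 1.82, 0.46 and -1.76 in LKO pools 1 to 3, against -2.93, -1.94 and -1.86 in control pools 1 to 3. Its difference was 2.42 (adjusted p = 0.187), and it passed both by the value table (3.61, adjusted p = 0.0431) and when LKO pool 3 was dropped (3.38, adjusted p = 0.0486). The 3 probes of Fabp4, a fatty acid carrier of fat cells and macrophages also named after its values were seen, lay wholly higher in LKO pools by 0.24 to 0.33, and none passed. Lpl, Cd36 and Car3, named after their values were seen, had lower means in LKO pools. Lpl differed by -1.01 and -0.49 (limma adjusted p = 0.0792 and 0.328), and by -0.44 and 0.07 with the value table. Cd36 differed by -0.73 and -0.95 and Car3 by -0.57 and -0.56, and none of these probes passed. Of 14 adipocyte markers, 9 had a tested probe. Of their 15 probes 5 were higher and 10 lower, where 52.7% of all tested probes were higher. At an unadjusted limma p under 0.05, 3 of the 15 were higher and 5 lower (10.7% and 10.5% of all tested probes). The 3 came from Fabp4 and Slc2a4 alone and the 5 from Cfd, Car3, Lpl and Cd36, so some genes count more than once. The median was -0.47, -0.43 by the value table and -0.20 when LKO pool 3 was dropped. Their summed level ranged from 7.68 to 8.77 in LKO pools and from 8.39 to 8.63 in control pools. In this sum of unlogged intensities Thrsp (mean 7.55 in LKO pools and 7.27 in control pools) and the brighter Car3 probe (6.99 and 7.56) weigh most. These levels are near that of the hepatocyte gene Cyp2e1 (7.58 and 7.59). Adipoq, Lep, Retn, Ucp1 and Plin1 had no tested probe and are not in the sum. It thus does not measure them and cannot be read as an amount of fat-cell RNA. The defining markers Lep, Ucp1 and Plin1 were not well above background on any array, Adipoq was so on 1 of 3 arrays in each group, and of 2 Retn probes 1 was so on no array and the other on 1 array in each group. The part of fat-cell RNA in the Cidea result was not tested.

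Cideb and Cidec showed small differences. Cideb, the CIDE protein of hepatocytes that aids the lipidation of VLDL, read 2.45, 2.63 and 3.05 in LKO pools 1 to 3, against 2.80, 2.85 and 2.73 in control pools 1 to 3. LKO pools 1 and 2 were below all controls and LKO pool 3 above them, so that the difference was -0.08 (95% interval -0.47 to 0.31, adjusted p = 0.798). In the value table LKO pool 3 read 2.61, which put all LKO pools below the controls (-0.23, interval -0.45 to -0.01, adjusted p = 0.178). Cidec (Fsp27), which drives the growth of large droplets in fat cells and fatty liver, read 0.94, 0.67 and 0.61 in LKO pools 1 to 3, against 0.44, 1.08 and 0.71 in control pools 1 to 3. These groups overlapped throughout, with a difference of 0.00 (interval -0.45 to 0.44), and -0.24 with the value table, where LKO pool 3 read -0.09.

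**Figure D2:**
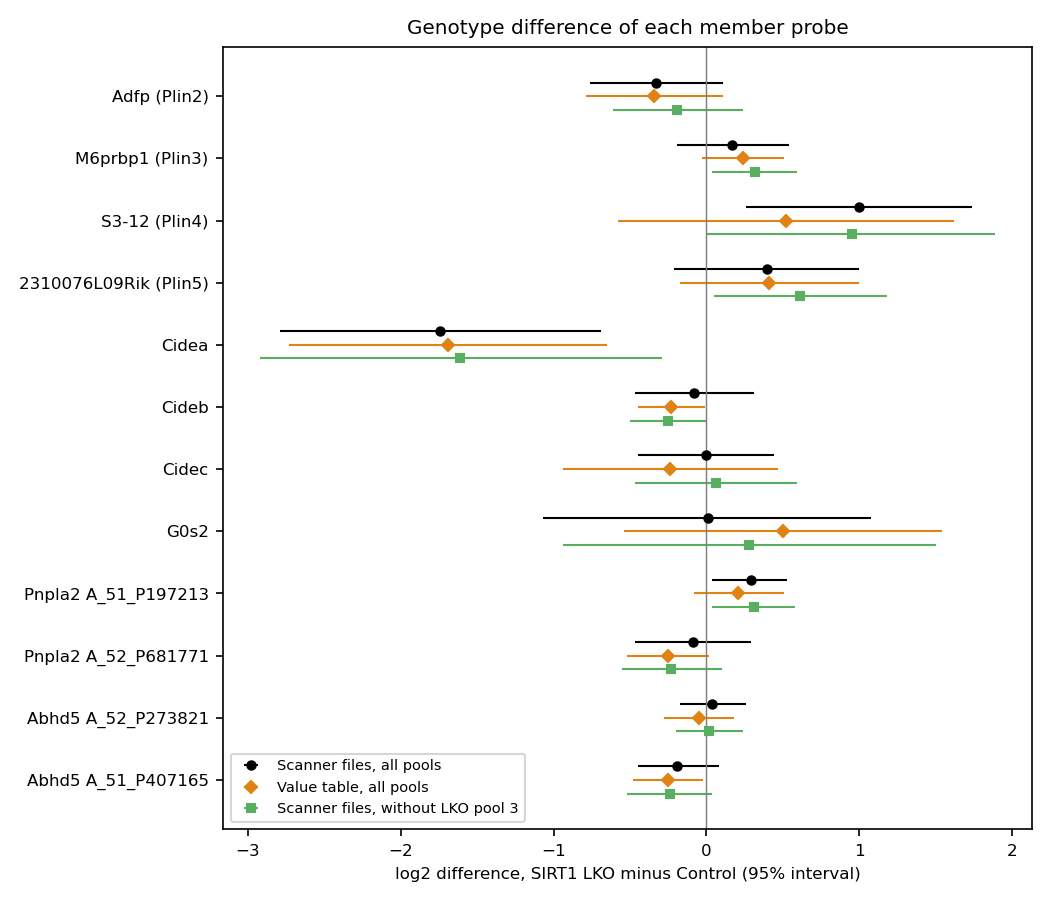
Points are log2 differences, SIRT1 LKO minus Control, of each member probe and bars are 95% intervals from limma, for the scanner files (black circles), for the value table (orange diamonds) and for the scanner files without LKO pool 3 (green squares). Cidea lies furthest from 0 at -1.74, -1.69 and -1.61 in the 3 fits, and G0s2 has intervals over 2 log2 units wide.

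In the lipolysis machinery, G0s2, the inhibitor of Pnpla2, was the most variable between pools of 1 genotype. It read 3.41, 4.13 and 2.94 in LKO pools 1 to 3, against 2.62, 4.06 and 3.79 in control pools 1 to 3. The highest and the lowest pool of each genotype differed by more than 1 log2 unit, and the groups overlapped fully. The difference was 0.01 with a 95% interval of -1.07 to 1.08, which leaves a 2-fold difference in either direction within reach. G0s2 of LKO pool 3 read 2.94 by its scanner file but 4.43 by the value table, a gap of 1.49 that exceeded those of 97.9% of tested probes, and the value table gave a difference of 0.50 (adjusted p = 0.489). Plin4 had a gap of -1.43 (97.6% of probes had a smaller one), against a median size of 0.245 over all tested probes. Plin2 and Plin5 had gaps of -0.04 and 0.05.

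Pnpla2, the lipase itself, was read by 2 probes that start 830 bases apart on the plus strand of chromosome 7, at 137876465 to 137876524 and 137877295 to 137877354 (mm7). The array files list 1 Ensembl transcript for the second of these and 2 for the first. The brighter probe, A_51_P197213, read 4.99, 4.93 and 4.90 in LKO pools 1 to 3, against 4.64, 4.53 and 4.79 in control pools 1 to 3. All LKO pools were higher than all controls by this probe, with a difference of 0.29 or 1.22-fold (SE 0.10, 95% interval 0.04 to 0.53, adjusted p = 0.184), and 0.21 with the value table, where LKO pool 3 at 4.67 lay inside the control range. The other probe, A_52_P681771, read 2.29, 2.53 and 2.81 in LKO pools 1 to 3, against 2.53, 2.58 and 2.79 in control pools 1 to 3. By this probe the groups overlapped, LKO pool 3 being the highest of the 6, and the difference had the opposite sign (-0.09, interval -0.47 to 0.29, adjusted p = 0.769). The value table put LKO pool 3 at 2.34 and all LKO pools below the controls (-0.25, adjusted p = 0.216). When that pool was dropped the difference was -0.23, again with the LKO pools below (adjusted p = 0.292).

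Abhd5, the activator, was also read by 2 probes, which start 12.8 kilobases apart on the plus strand of chromosome 9, at 122075868 to 122075927 and 122088651 to 122088710 (mm7). Probe A_52_P273821 read 0.58, 0.70 and 0.70 in LKO pools 1 to 3, against 0.57, 0.62 and 0.65 in control pools 1 to 3. This was the steadiest member, with a range over the 6 arrays smaller than that of all but 0.983% of tested probes, and a difference of 0.04 (95% interval -0.17 to 0.26), or -0.05 with the value table (adjusted p = 0.792). Probe A_51_P407165 read -0.41, -0.67 and -0.38 in LKO pools 1 to 3, against -0.32, -0.25 and -0.33 in control pools 1 to 3. All LKO pools were lower here, by a narrow margin, with a difference of -0.19 (interval -0.45 to 0.08, adjusted p = 0.373) and -0.25 with the value table (adjusted p = 0.169).

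The first 30 of the 60 bases of these 4 probes are shown, 5′ to 3′ as the array files give them, because in each gene the 2 stretches gave differences of opposite sign with the scanner files. With the value table both Abhd5 probes were lower (-0.05 and -0.25), and without LKO pool 1 both Pnpla2 probes were higher (0.27 and 0.04). No capitals are marked.
Pnpla2 A_51_P197213: agtgtgtgaagaattatttatttttgccaa
Pnpla2 A_52_P681771: atccggtggatgaaagagcagacgggtagc
Abhd5 A_52_P273821: attgggcttcggaagaagtagtagacctaa
Abhd5 A_51_P407165: tcgacctcacaaatcacgactcgatgactt

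Over the full length, the Pnpla2 probes held 35.0% (A_51_P197213) and 55.0% G and C, and the Abhd5 probes 43.3% (A_52_P273821) and 41.7%. No transcript sequence was used here, so the exon each probe reads is not given. Within each array the brighter Pnpla2 probe exceeded the other by 2.71, 2.41 and 2.09 in LKO pools 1 to 3, against 2.11, 1.95 and 2.00 in control pools 1 to 3. LKO pools 1 and 2 lay above all controls and pool 3 between them, a mean gap of 2.40 ± 0.31 in LKO livers and 2.02 ± 0.08 in controls (SD, n = 3 each; exact permutation p = 0.2, two-sided). In the value table LKO pool 3 had a gap of 2.33, above all controls, and the exact permutation p was 0.1, the smallest that 3 arrays against 3 allow. For Abhd5 the gap was 0.99, 1.37 and 1.09 in LKO pools 1 to 3, against 0.89, 0.88 and 0.98 in control pools 1 to 3 (exact permutation p = 0.1, the smallest possible, with either source). Adjusted over the 2 genes, the p-values were 0.2 and 0.2 with the scanner files and 0.1 and 0.1 with the value table.

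**Figure D3:**
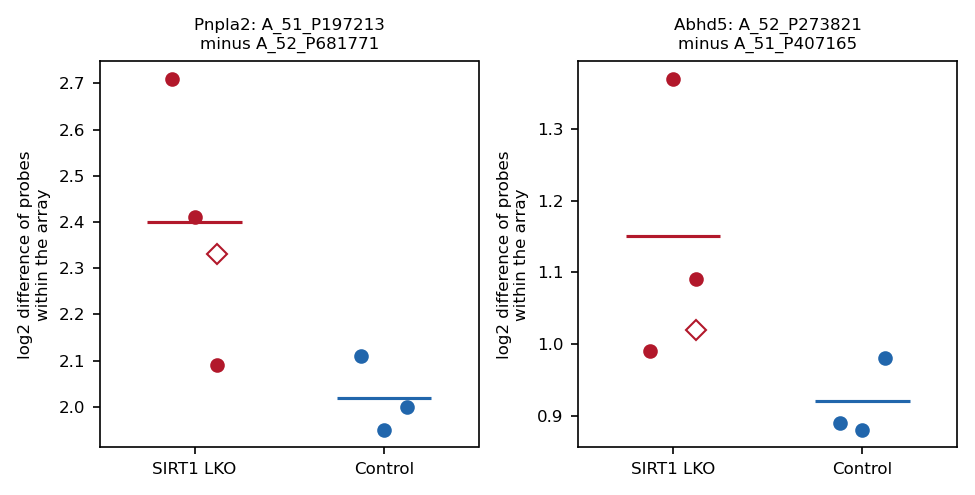
The vertical axis is the log2 intensity of one probe minus that of the other probe of the same gene on the same array, for Pnpla2 (left) and Abhd5 (right), with SIRT1 LKO pools in red, Control pools in blue, group means as lines and LKO pool 3 from the value table as an open diamond. The Pnpla2 gap in LKO pools 1 and 2 (2.71 and 2.41) exceeded every control, the highest of which was 2.11, and all 3 Abhd5 gaps in LKO pools exceeded the highest control, 0.98.

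The remaining member probes are on the minus strand in mm7. They lie on chromosome 4 for Plin2 (86060498 to 86060557), chromosome 17 for Plin3 (54437255 to 54437314), chromosome 14 for Cideb (50622503 to 50622562), chromosome 6 for Cidec (113585627 to 113585686) and chromosome 1 for G0s2 (192825383 to 192825442).

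With LKO pool 3 taken from the value table, 0 of the 12 member probes passed in limma, where 1.25% of 23546 probes did (0.599% higher and 0.650% lower), and 3 (Cidea, Cideb and Abhd5 probe A_51_P407165, all lower) had an unadjusted p under 0.05, against 26.3% (14.7% higher and 11.5% lower). In that reading 4 members were wholly lower and 0 wholly higher, against 14.9% and 19.2% of all probes (34.1% in either direction). Without LKO pool 3, 0 members passed in limma where 2.96% of probes did (1.46% higher and 1.50% lower), and 5 had an unadjusted p under 0.05, against 30.6% (16.5% higher and 14.1% lower). Those 5 were Plin3, Plin4, Plin5 and Pnpla2 probe A_51_P197213, all higher, and Cidea, lower. In both readings the counts hold Cidea, which entered the test through the control group alone. With 2 LKO pools against 3 controls, 8 of 12 member probes did not overlap, against 51.7% of all probes: 4 lay above (28.1% of all) and 4 below (23.6% of all). With the slide as a random block the smallest adjusted p of a member was 0.416, that of Cidea.

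Genes that act beside the members in droplet formation, triglyceride synthesis and breakdown were examined as a list of 29, of which 27 had 50 tested probes. None of the 50 passed in limma, and at an unadjusted p under 0.05 there were 7, 1 higher and 6 lower, against 10.7% higher and 10.5% lower of all tested probes. Of the 50, 22 were higher and 28 lower with a median of -0.06. Plin1, the perilipin of mature fat cells, was not well above background on any array, and the hormone-sensitive lipase Lipe differed by -0.36 and -0.47 by its 2 tested probes (adjusted p = 0.340 and 0.253), and by -0.46 and -0.66 with the value table (adjusted p = 0.113 and 0.0557).

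The smallest p-values in the list belonged to Lipa, Fitm1, Lpin2, Hilpda and Bscl2. Lipa, the lysosomal acid lipase, read 1.55, 1.60 and 1.78 in LKO pools 1 to 3, against 2.29, 2.26 and 2.07 in control pools 1 to 3. Its LKO pools were wholly lower, by -0.56 (SE 0.11, adjusted p = 0.0881), and -0.54 with the value table (adjusted p = 0.0679). Fitm1, which helps package fat into droplets, read -0.64, -0.63 and -1.02 in LKO pools 1 to 3, against -0.31, 0.05 and 0.04 in control pools 1 to 3 (-0.69, adjusted p = 0.105; -0.71 with the value table). For Lpin2, a phosphatidate phosphatase, 1 probe differed by -0.65 with the LKO pools wholly lower (adjusted p = 0.111), and another by -0.10. The third, A_51_P483081, differed by 0.23 with LKO pool 3 at -0.43, against -3.57 and -4.08 in LKO pools 1 and 2. It differed by -0.92 with the value table and -0.90 when that pool was dropped (adjusted p = 0.0883 and 0.117). Hilpda, an inhibitor of Pnpla2 like G0s2, was wholly higher in LKO pools by one probe (-0.64 ± 0.08 in LKO livers and -1.04 ± 0.09 in controls, SD, n = 3 each; difference 0.40, limma adjusted p = 0.115) and differed by 0.25 with overlap by the other. The value table gave 0.37 and 0.25. The 2 probes of Bscl2 (seipin), which shapes new droplets, both lay wholly lower, with differences of -0.26 and -0.47 (adjusted p = 0.228 and 0.132). With the value table these were -0.18 and -0.38, and LKO pool 3 lay inside the control range by both probes.

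Some list probes passed in other readings. These were 2 of 50 with the value table (1.25% of all tested probes passed) and 3 of 50 without LKO pool 3 (2.96%). At an unadjusted limma p under 0.05 the value table had 4 of 50 higher and 12 lower (14.7% and 11.5% of all tested probes). Without LKO pool 3, 9 of 50 were higher and 11 lower (16.5% and 14.1% of all). With the value table Lpin2 probe A_51_P370438 passed as lower (-0.82, limma adjusted p = 0.0429). Pnpla5, a patatin-like lipase named after its value was seen, passed as higher (1.50, limma adjusted p = 0.0492). Its probe entered the test through the LKO group alone, where it was higher, with 2 of 3 control arrays well above background. LKO pool 3 of Pnpla5 read -2.41 in the value table but -4.43, inside the control range, in the scanner file. The scanner files gave 0.83 with overlap (limma adjusted p = 0.252). Without LKO pool 3, Lipa (-0.63, limma adjusted p = 0.0492), the same Lpin2 probe (-0.81, adjusted p = 0.0423) and Pnpla5 (1.26, adjusted p = 0.0462) passed. The brightest Lpin2 probe, A_51_P256323, differed by -0.15 with the value table and by -0.06 without LKO pool 3.

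**Figure D4:**
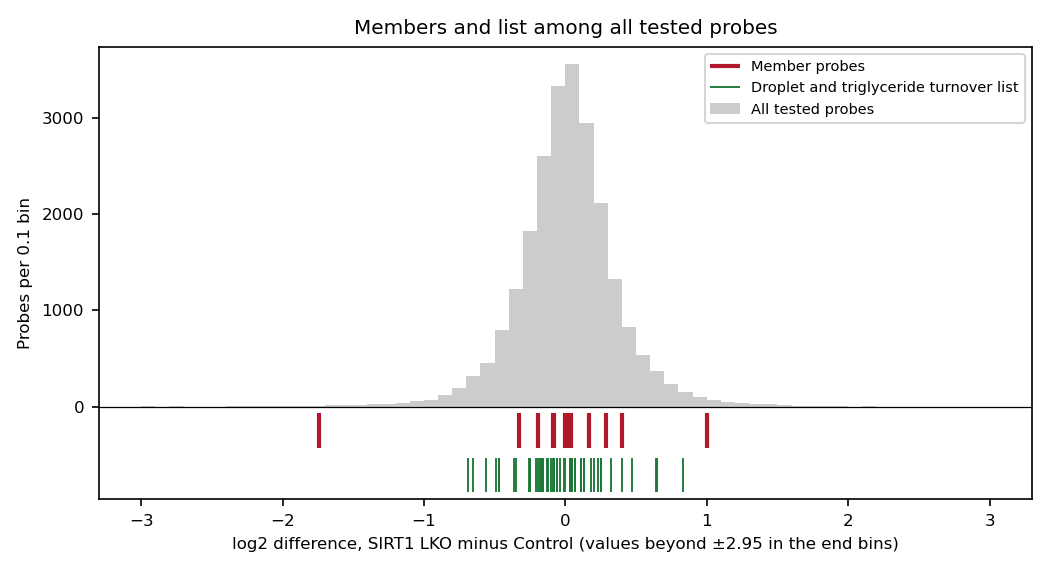
Grey bars count all tested probes by their log2 difference, SIRT1 LKO minus Control, in bins of 0.1, with red ticks for the 12 member probes and green ticks for the 50 probes of the droplet and triglyceride turnover list below the axis. Cidea at -1.74 and Plin4 at 1.0 lie in the sparse flanks, and the other 10 member probes lie between -0.33 and 0.40.

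Other cell types were followed by their markers. Hepatocyte genes had a median difference of -0.01 over 12 probes and a summed level of 10.79 to 11.12 in LKO pools and 10.77 to 11.02 in control pools. Kupffer cell and macrophage markers (8 genes) had 1 of 11 probes higher and 10 lower, where 52.7% of all tested probes were higher. Csf1r and Adgre1 count more than once here, and the groups overlapped in every macrophage probe by the scanner files. The direction of these 11 probes depended on the source of LKO pool 3. Their median was -0.21 by the scanner files but 0.18 by the value table, where most of them were higher. Dropping that pool gave a median of -0.1. Stellate cell markers had 4 probes higher and 4 lower (median 0.02). None of these probes passed in limma; at an unadjusted p under 0.05 there was 1 hepatocyte probe, 2 macrophage and 2 stellate cell probes, all lower (10.5% of all tested probes were lower). Without LKO pool 3, probe A_51_P198473 of the hepatocyte regulator Hnf4a, named after its value was seen, passed as lower (-0.56, limma adjusted p = 0.0492). With all pools this probe differed by -0.44 (limma adjusted p = 0.133). The brightest Hnf4a probe, A_52_P683991, differed by -0.07 without LKO pool 3 (limma adjusted p = 0.707), and A_52_P69656 by -0.31 (0.0928). None of the 7 probes of 5 skeletal muscle genes was tested, since none had signal well above background throughout a group.

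By likeness of pattern over the 6 arrays, the probes closest to Cidea, which had both the smallest p and the widest range of the members, belonged to Ahcyl2 (Pearson r = 0.995), the transcript 1700028N14Rik (0.993) and Gla, the lysosomal alpha-galactosidase (0.992), among 23545 probes compared. Ahcyl2 read -3.38, -3.52 and -3.53 in LKO pools 1 to 3, against -3.31, -3.05 and -3.11 in control pools 1 to 3. The match is one of order and spacing, since Ahcyl2 spanned a far narrower range than Cidea, and the 6 arrays share the genotype split and the slides.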

How the data were processed

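The members and the gene lists were chosen with earlier results of these data known, and names such as Plin2 come from the accession in the array files matched to RefSeq (GRCm38.p6), with matches by symbol or synonym for other genes. Of 41174 probes, 22951 matched by accession, 6659 by symbol and 3109 by synonym, and 8455 kept the name in the file. Spot intensity in the deposited scanner files came from Feature Extraction 9.5, as the submitters' processing notes say, and its processed form had background subtracted and spatial trends removed array by array, per the file headers. A value table was also deposited, with 1 intensity for each probe and sample, and the design text names the Rosetta Resolver error model. Its values matched the processed intensity in 5 samples. The sources used here do not say how the column of LKO pool 3 was made. Its 75th percentile was 845 in that column and 1289 in the scanner file. Each spot also carries deposited flags of 0 or 1.

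Control spots were dropped and outlier spots treated as missing, spots of 1 probe were averaged after log2 and the 75th percentile of each array subtracted. A probe was tested when well above background on all 3 arrays of a group. Two-sided differences were fitted with limma 3.58.1 in R 4.3.3 (lmFit and eBayes, genotype only), adjusted over all tested probes at a threshold of 0.05. Pools hold different animals, and limma p-values weigh each difference against the spread between pools of 1 genotype, moderated over all tested probes by eBayes. The control pools shared 1 slide, so their spread holds no difference between slides. The number of pools limits the precision. Gaps between probes of a gene were compared with exact permutation tests over arrays. Named genes were all members, the listed droplet genes with the 5 smallest p-values together with Plin1 and Lipe, defining adipocyte markers, Sirt1 and the probes most correlated with the member of smallest p and of widest range. The alternatives are named in the closing section. Figures were drawn with matplotlib 3.10.9.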

Additional observations from a re-analysis of the deposited data

How the results depend on the processing

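Requiring signal above background on all arrays removed Cidea, and 1 probe per gene kept 10 member probes; the other alternatives tested all 12. No member probe tested passed in limma except with array weights, which called 2 (Cidea, and Pnpla2 probe A_51_P197213 at 0.36, adjusted p = 0.0297); the fits that called 0 members had 1 to 5 at an unadjusted p under 0.05. Over all probes the count was 15, and 0 after normexp correction, with no filter on dim probes and with the slide as a random block. It was 49 with probes above background on all arrays, 24 with 1 probe per gene, 91 with an intensity trend and robust variance, 5585 with array weights, 294 with the value table and 0 to 698 when 1 pool was left out, the 698 being without LKO pool 3. The fits that called 0 had 1568 to 6859 probes at an unadjusted p under 0.05, and the first fit had 5008. With the replicate number as a block, which the titles do not say pairs the pools (correlations of deviations 0.01, -0.04 and -0.09), the count was 0. In the droplet list the count was 0, and 14 with array weights, 2 with the value table and 0 to 3 when 1 pool was left out. In the first fit, the counts at an unadjusted limma p under 0.05 were 3 for members and 7 for the list. Signs that turned belonged to members with differences near 0. Cidec was 0.03 after normexp and -0.15 to 0.17 when 1 pool was left out. G0s2 was -0.05 after quantile normalization, -0.05 with the slide block, -0.06 with array weights and -0.43 to 0.29 when 1 pool was left out. When 1 pool was left out, Cideb ranged from -0.25 to 0.05 and Pnpla2 probe A_52_P681771 from -0.23 to 0.04. Abhd5 probe A_52_P273821 was -0.05 with the value table. Cidea ranged from -2.24 to -1.42 and Plin4 from 0.73 to 1.25 when 1 pool was left out. In all, 12 of 213 values under an alternative turned sign, 2 passed newly and 199 kept their direction and side of the threshold. The cause of these shifts was not tested.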
